A study of Homo sapiens with 6 samples.

Results

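HGF was compared with vehicle after 24 hours in DU145, an established human cell line from a brain metastasis of prostate cancer, on 2 of the 6 Affymetrix U133plus2.0 arrays of the series. All 6 cultures were DU145 cells in RPMI medium with dextran charcoal treated serum, and they received either vehicle or 25 ng/ml HGF for 2, 8 or 24 hours. The members of the comparison are the array labelled as 24 hours without HGF and the array labelled as 24 hours with HGF, so there was 1 array a side, no replicate and no test. Of 19775 genes with a probe set of 1 gene symbol, 10229 read above a floor of 30 in at least 1 of the 2 arrays. Each array was scaled to a mean intensity of 150, values under 30 were set to 30, and a gene's log2 ratio, HGF over vehicle, is the mean over its probe sets. Levels of single arrays are given on this scaled intensity scale, before the floor, for the brightest probe set of a gene. Since probes differ in brightness, levels are set against each other only within a gene.

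Hepatocyte growth factor, also called scatter factor, is a secreted ligand made by stromal cells, and its receptor is the tyrosine kinase c-MET of epithelial cells. The active receptor signals through the Ras-ERK and PI3K-AKT pathways, and its late effects in epithelial cells include loss of cell-cell contact, motility, matrix degradation and survival. The ternary complex and AP-1 transcription factors link ERK activity to new transcription, first of feedback inhibitors and regulators and later of proteases, adhesion receptors and cytokines.

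The cells carried the epithelial markers their label implies. Of 6 epithelial markers 5 were above the floor at 24 hours, KRT8, KRT18, KRT19, EPCAM and CDH1, and CLDN4 was not. CDH1, which encodes E-cadherin, was the only one of them that met the selection criteria, as lower, with 591.2 (vehicle) and 270.3 (HGF). Of 4 prostate luminal markers analysed only KLK3 was above the floor, while KLK2, TMPRSS2 and FOLH1 were not. Of 7 fibroblast markers 1 was above the floor, COL1A1, and of 4 leukocyte and 5 endothelial markers none was. COL1A1 had a log2 ratio of 0.01.

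Some technical readings of the arrays differed with time. The deposited mean intensity ranged from 149.1 to 205.4 over the 6 arrays, and the lowest belonged to vehicle at 24 hours, against 187.3 for HGF at 24 hours. The 3'/5' ratio of the ACTB control probe sets, a reading of RNA integrity, reached 1.63 in the vehicle array and 1.71 in the HGF array of 24 hours, the highest of the series. The same ratio of the GAPDH control probe sets ranged from 0.92 to 1.01 over the 6 arrays. At 24 hours it was 0.96 (vehicle) and 1.01 (HGF). The part of these readings in the log2 ratios was not tested.

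After 24 hours most genes read alike in both arrays. The median log2 ratio of the 10229 genes was 0.02, their SD was 0.33, the central 95% lay between -0.61 and 0.71, and 89.8% were closer to 0 than 0.50. A gene was selected by a rule modelled on the study's criteria. At least 1 of its probe sets had to differ by 2-fold. The mean over all of them had to differ by 0.50 on the log2 scale in the same direction. Probe sets at the floor in both arrays entered this mean as no difference. CEBPD, with 1 of 2 probe sets above the floor, thus had a mean of -0.82 where that probe set had -1.645. By this rule 206 genes were higher with HGF, 2.01% of those above the floor, and 110 were lower, 1.08%. The genes higher with HGF had a median log2 ratio of 0.90, and 89 of them reached 1 and 29 reached 1.5. The genes lower with HGF had a median of -0.91, and 51 fell to -1 or below and 6 to -1.5 or below. The median level of the higher genes was 65.0 with vehicle and 135.3 with HGF, and that of the lower genes was 93.5 with vehicle and 48.6 with HGF. For 52 of the higher and 40 of the lower genes 1 side of a probe set was under the floor, so their ratios are bounds. Where several probe sets of a higher gene were above the floor, in 117 genes, they had the same sign in 114, and of 52 such lower genes in 51. Of the higher genes 202 are protein coding, and of the lower genes 96, with 9 long non-coding RNAs and 5 transcribed pseudogenes among the rest.

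**Figure D1:**
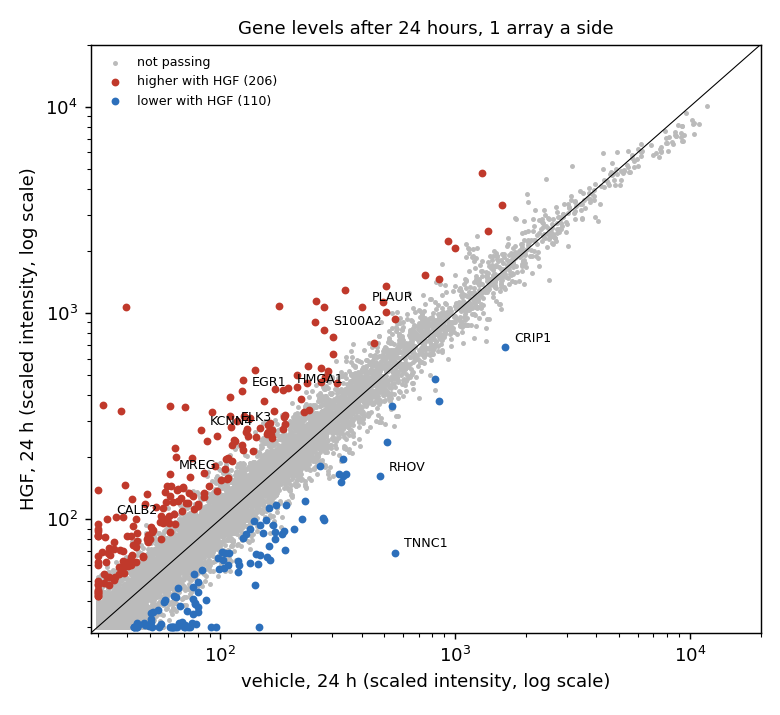
Scaled intensity of each gene with vehicle (x axis) and HGF (y axis) at 24 hours, both on log scales, mean over probe sets after the floor of 30, 1 array a side; grey points are genes that did not meet the criteria and the line marks equal levels. Red points are the 206 genes higher and blue points the 110 genes lower with HGF, and TNNC1 lies farthest below the line.

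Among the 83 genes selected as higher after 2 hours, 30 met the criteria again after 24. EGR1, an immediate early zinc finger factor, read 521.1 (vehicle) and 2836 (HGF) after 2 hours, 245.6 and 1412 after 8 and 320.0 and 1228 after 24. Its ratio of at least 3.37-fold at 24 hours was the highest of the genes that the study does not name in its text or among its top genes. SPRY4, a Sprouty inhibitor of receptor tyrosine kinase signalling to ERK, read 37.4 (vehicle) and 148.0 (HGF) after 2 hours, 61.0 and 180.5 after 8 and 64.7 and 201.3 after 24. In both genes the HGF array was above its vehicle array at each of the 3 times, and no vehicle array reached any HGF array. CXCL1, a neutrophil chemokine, read 80.1 (vehicle) and 318.6 (HGF) after 2 hours, 140.8 and 252.3 after 8 and 110.0 and 316.3 after 24. CXCL3 of the same chemokine family read 21.9 (vehicle) and 68.5 (HGF) after 2 hours, 26.4 and 33.9 after 8 and 23.1 and 83.8 after 24, so that it was high at 2 and 24 hours and near its vehicle level at 8 hours. DDIT3, the C/EBP-type stress factor CHOP, had the same course, 122.1 (vehicle) and 288.9 (HGF) after 2 hours, 153.4 and 147.5 after 8 and 133.2 and 310.3 after 24.

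Another set of genes was higher at 8 hours and stayed so, and of those named here PLAUR met the criteria at 2 hours as well. KCNN4, the intermediate-conductance calcium-activated potassium channel, read 71.5 (vehicle) and 88.7 (HGF) after 2 hours, 83.0 and 249.7 after 8 and 82.6 and 270.3 after 24. S100A2, a calcium-binding protein of basal squamous epithelium, read 269.2 (vehicle) and 336.8 (HGF) after 2 hours, 245.5 and 758.5 after 8 and 276.2 and 824.2 after 24. PLAUR, the urokinase receptor, was higher on all 3 of its probe sets, between 1.08 and 1.60 on the log2 scale, and its brightest read 581.5 (vehicle) and 1286 (HGF) after 2 hours, 684.1 and 3060 after 8 and 786.8 and 2340 after 24. The 3 vehicle arrays of each of these genes lay close together and the HGF arrays of 8 and 24 hours lay above all of them. PRSS22, an epithelial tryptase-like serine protease, read 41.8 (vehicle) and 124.8 (HGF) at 24 hours. CORO2B, an actin-binding coronin, was under the floor in all 3 vehicle arrays, and read 79.4 at 8 hours and 94.6 at 24 hours with HGF, at least 3.15-fold higher at 24 hours. IL24, a cytokine of the interleukin-10 family, and SH2D2A, an adaptor protein of lymphocyte and growth factor signalling, were under the floor in all vehicle arrays too. IL24 read 83.2 and SH2D2A 87.7 with HGF at 24 hours, at least 2.77-fold and at least 2.92-fold over the floor. CTSLP8, a pseudogene related to cathepsin L, read 48.6 (vehicle) and 132.4 (HGF), and CTSL itself had a log2 ratio of 0.97, so signal from these related transcripts cannot be told apart here.

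The promoters of the higher genes were searched on both strands for 5 short motifs, because several of these genes are known targets of ERK-driven factors. The windows, from RefSeq on GRCh38.p14, run from 250 bases before to 50 bases after each start. They were found for 163 of the 206 higher genes, in 249 windows, and for 75 of the 110 lower genes, in 105 windows. The AP-1 motif TGANTCA occurred in 25 windows of the higher genes, 10.04%, and in 3 of the lower genes, 2.86%. It occurred in 4.98% of the 12068 windows of genes above the floor that did not meet the criteria and in 7.71% of all 35116 windows. The late genes, those with a log2 ratio within 0.5 of 0 at 2 and 8 hours, had it in 6.98% of windows when higher and in 2.13% when lower. The NF-kB motif occurred in 4 windows of higher genes, 1.61%, in 1 window of lower genes, 0.952%, in 0.646% of genes above the floor that did not meet the criteria and in 0.558% of all. The CRE motif TGACGTCA was in 2.81% of windows of higher genes, 0.952% of lower genes, 2.93% of genes above the floor that did not meet the criteria and 1.85% of all. The CCAAT box was in 30.5% of windows of higher genes, 30.5% of lower genes and 34.6% of all, and the GC box GGGCGG in 63.5%, 66.7% and 45.0%, where 68.0% of the windows of genes above the floor that did not meet the criteria held the GC box. Windows of 1 gene can overlap, and a match is a description of the letters only. The following are the 250 bases before the start of 5 genes with an AP-1 motif in that stretch. They have the highest ratios among such genes that the study does not name in its text or among its top genes. The sequences are written 5' to 3' on the strand of the gene, with the motif in capitals.
S100A2, chr1:153565845-153566094, minus strand: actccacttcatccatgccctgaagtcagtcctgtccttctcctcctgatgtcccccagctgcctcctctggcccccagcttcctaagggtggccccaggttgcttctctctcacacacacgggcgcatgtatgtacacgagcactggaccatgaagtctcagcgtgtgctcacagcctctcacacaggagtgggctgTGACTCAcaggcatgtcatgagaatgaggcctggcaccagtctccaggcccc
HSD11B1-AS1, chr1:209724126-209724375, minus strand: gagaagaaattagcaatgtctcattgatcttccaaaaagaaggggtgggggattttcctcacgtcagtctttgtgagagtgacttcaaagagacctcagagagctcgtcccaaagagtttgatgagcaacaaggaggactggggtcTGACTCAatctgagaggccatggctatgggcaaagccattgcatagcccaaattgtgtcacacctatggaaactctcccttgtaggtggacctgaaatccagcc
PLAUR, chr19:43670170-43670419, minus strand: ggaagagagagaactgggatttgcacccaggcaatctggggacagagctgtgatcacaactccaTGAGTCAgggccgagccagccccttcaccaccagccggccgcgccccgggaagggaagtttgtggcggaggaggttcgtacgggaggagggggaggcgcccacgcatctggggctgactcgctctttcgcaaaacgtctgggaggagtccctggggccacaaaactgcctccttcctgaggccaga
SPHK1, chr17:76385028-76385277, plus strand: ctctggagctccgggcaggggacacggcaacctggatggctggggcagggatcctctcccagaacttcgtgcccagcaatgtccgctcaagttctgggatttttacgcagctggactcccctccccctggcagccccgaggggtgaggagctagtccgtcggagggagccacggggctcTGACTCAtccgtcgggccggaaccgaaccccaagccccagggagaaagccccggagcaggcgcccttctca
TFPI2, chr7:93890754-93891003, minus strand: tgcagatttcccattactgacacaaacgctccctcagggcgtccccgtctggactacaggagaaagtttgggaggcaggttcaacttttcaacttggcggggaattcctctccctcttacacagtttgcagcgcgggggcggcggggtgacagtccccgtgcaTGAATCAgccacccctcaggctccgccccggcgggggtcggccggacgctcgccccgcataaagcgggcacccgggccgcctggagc
The motif began 52 bases before the start in S100A2, 104 in HSD11B1-AS1, 186 in PLAUR, 71 in SPHK1 and 87 in TFPI2. HSD11B1-AS1, a long non-coding RNA, read 23.1 (vehicle) and 45.7 (HGF) after 2 hours, 29.4 and 33.1 after 8 and 35.8 and 102.2 after 24, so only its 24 hour HGF array stood clearly apart. TFPI2, a Kunitz-type inhibitor of serine proteases, was higher on both of its probe sets, with log2 ratios of 0.71 and 1.79. The brighter of them read 1666 (vehicle) and 2684 (HGF) after 2 hours, 2583 and 3217 after 8 and 1876 and 3078 after 24.

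Late genes were chosen as those with a log2 ratio within 0.5 of 0 at both 2 and 8 hours, so the label does not say which array moved. They were 78 of the 206 higher genes, 37.9%, and 55 of the 110 lower genes, 50%, where 60.3% of all genes above the floor lay within the same limits. Of these, 34 higher and 25 lower genes also lay beyond all 3 vehicle arrays by at least 0.50 on the log2 scale at 24 hours. MMP1, the interstitial collagenase, was the most extreme late gene, with 26.3 (vehicle) and 30.5 (HGF) after 2 hours, 55.1 and 56.7 after 8 and 39.5 and 1065 after 24. Both arrays of 2 hours and both of 8 hours were close to each other, and the HGF array of 24 hours alone was high. Of the late genes that the study does not name in its text or among its top genes the highest was CALB2, which its supplementary list holds. CALB2 encodes the calcium-binding protein calretinin. It read 33.1 (vehicle) and 27.6 (HGF) after 2 hours, 29.3 and 38.4 after 8 and 33.0 and 100.2 after 24. MREG, melanoregulin, a protein of organelle transport, was higher on both probe sets, and its brighter one read 114.3 (vehicle) and 116.5 (HGF) after 2 hours, 124.9 and 239.8 after 8 and 122.0 and 309.9 after 24. That probe set was already higher at 8 hours, while the mean over both probe sets was 0.48 there.

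Several late genes encode proteins of transcription, adhesion and matrix. ELK3, an ETS factor of the ternary complex family that binds beside serum response factor, read 476.4 (vehicle) and 473.2 (HGF) after 2 hours, 605.4 and 652.5 after 8 and 412.9 and 1292 after 24. WWTR1, the TEAD coactivator TAZ of the Hippo pathway, was higher on 3 of 3 probe sets, with log2 ratios from 0.97 to 1.22. FERMT1, the epithelial integrin activator kindlin-1, read 120.6 (vehicle) and 134.8 (HGF) after 2 hours, 117.3 and 125.7 after 8 and 118.1 and 281.8 after 24. In this gene the vehicle arrays and both earlier HGF arrays lay between 117.3 and 134.8, and the HGF array of 24 hours stood apart. LTBP2, a latent TGF-beta binding protein of the matrix, read 40.4 (vehicle) and 32.7 (HGF) after 2 hours, 37.8 and 39.4 after 8 and 41.0 and 111.9 after 24. GLRX, the thiol reductase glutaredoxin, read 148.9 (vehicle) and 141.7 (HGF) after 2 hours, 169.8 and 161.5 after 8 and 107.7 and 336.8 after 24, and RGS17, a regulator of G protein signalling, read 48.5 (vehicle) and 55.7 (HGF) after 2 hours, 68.0 and 54.8 after 8 and 61.6 and 145.3 after 24. GPAT3, a glycerol-3-phosphate acyltransferase of lipid synthesis, read 440.1 (vehicle) and 535.0 (HGF) after 2 hours, 569.5 and 628.6 after 8 and 302.9 and 760.7 after 24. For GPAT3 part of the difference lay in the vehicle array of 24 hours, which was the lowest of the 3, and the ratio over the mean of the earlier vehicle arrays, those of 2 and 8 hours, was 0.60. The same held for RAB38, a Rab GTPase of lysosome-related organelles, with ratios of 1.12 and 0.39, and for SUSD6, with 1.21 and 0.47. MROH6 had a log2 ratio of 1.09, and of 0.83 over the earlier vehicle arrays, by which it did not meet the criteria. Its vehicle arrays read 49.1 after 2 hours, 124.0 after 8 and 65.3 after 24. Its HGF array of 24 hours read 138.7, close to the vehicle array of 8 hours.

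**Figure D2:**
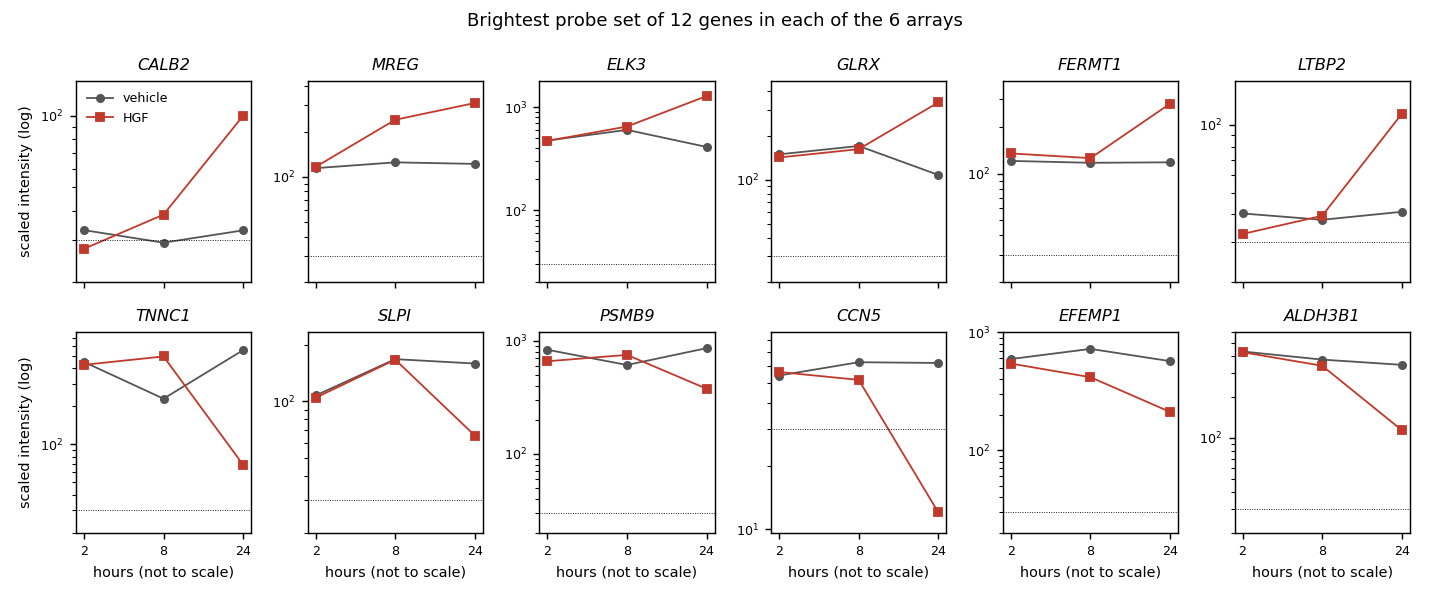
Scaled intensity (y axis, log scale) of the brightest probe set of 12 genes by hours of treatment (x axis, categories 2, 8 and 24) for vehicle (grey circles) and HGF (red squares), 1 array per point; the dotted line is the floor of 30. In the upper row the HGF array of 24 hours is the highest of the 6, and in the lower row it is the lowest.

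The genes lower with HGF were led by a muscle-type calcium sensor. TNNC1, which encodes the troponin C of cardiac and slow muscle, read 448.8 (vehicle) and 425.8 (HGF) after 2 hours, 229.7 and 496.1 after 8 and 556.6 and 68.9 after 24. It was 8.07-fold lower at 24 hours, while at 8 hours the HGF array was above its vehicle array. ASS1, argininosuccinate synthase of arginine synthesis, read 230.6 (vehicle) and 185.7 (HGF) after 2 hours, 173.3 and 337.6 after 8 and 274.4 and 101.1 after 24, with the same change of side. MATR3, an RNA-binding protein of the nuclear matrix, was measured here by 1 probe set and read 91.3 (vehicle) and 22.2 (HGF) at 24 hours, at least 3.04-fold lower. CRIP1, a small LIM domain protein, read 1197 (vehicle) and 1076 (HGF) after 2 hours, 1052 and 1646 after 8 and 1631 and 684.6 after 24. The vehicle array of 24 hours was the highest vehicle array of TNNC1, ASS1 and CRIP1.

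Further genes among the lowest were PSMB9, HLA-DMB, FCGRT, SLPI and MUC1. PSMB9, an inducible subunit of the immunoproteasome, read 829.9 (vehicle) and 656.8 (HGF) after 2 hours, 608.7 and 747.6 after 8 and 857.1 and 375.2 after 24. HLA-DMB, which helps load peptides on class II molecules, read 81.7 (vehicle) and 56.1 (HGF) after 2 hours, 48.8 and 43.7 after 8 and 75.7 and 31.2 after 24. FCGRT, the neonatal Fc receptor, read 70.7 (vehicle) and 24.5 (HGF) at 24 hours, at least 2.36-fold lower, but its vehicle arrays of 2 and 8 hours read 36.4 and 39.6. SLPI, the secretory leukocyte protease inhibitor, read 107.3 (vehicle) and 104.4 (HGF) after 2 hours, 167.5 and 166.4 after 8 and 158.7 and 65.7 after 24. In SLPI and PSMB9 the HGF array of 24 hours was the lowest of the 6. MUC1, a transmembrane mucin, was lower on 3 of 3 probe sets, and its brightest read 498.2 (vehicle) and 475.4 (HGF) after 2 hours, 358.2 and 556.3 after 8 and 653.8 and 210.2 after 24. The ratio of MUC1 over the earlier vehicle arrays was -0.61, against -1.21 over that of 24 hours.

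Further low genes were of mixed kinds. TM7SF2, a sterol reductase of cholesterol synthesis, read 222.0 (vehicle) and 100.2 (HGF) at 24 hours, and SLC29A3, a lysosomal nucleoside transporter, read 80.4 (vehicle) and 35.6 (HGF). HES7, a bHLH repressor of the Notch pathway, had a log2 ratio of -1.22, but -0.15 over the earlier vehicle arrays, since vehicle rose from 25.6 at 2 hours to 69.7 at 24 hours. FRG1HP, a pseudogene, was in the same position, with -1.20 and -0.44. Among non-coding RNAs MIR181A2HG, a microRNA host gene, was already lower at 8 hours and read 61.7 (vehicle) and 48.5 (HGF) after 2 hours, 78.3 and 5.46 after 8 and 74.3 and 8.65 after 24. PXN-AS1 read 144.9 (vehicle) and 60.5 (HGF) at 24 hours and JMJD1C-AS1 133.3 (vehicle) and 61.0 (HGF), both without a difference over 0.5 at 2 and 8 hours. Other late low genes were EFHD1, a calcium-binding protein of mitochondria (-1.11), BIK, a BH3-only apoptosis inducer (-1.09), ECHDC2 (-1.08), MYL5, a myosin light chain (-1.12), RDM1 (-1.15) and COG7, a subunit of the Golgi tethering complex (-1.07). Over the earlier vehicle arrays BIK had -0.52 and RDM1 -0.34, while COG7 had -1.08 and MYL5 -0.87. By that reference PXN-AS1 had -0.64, SLC29A3 -0.58, TM7SF2 -0.89 and JMJD1C-AS1 -0.99, each short of 2-fold.

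Squamous and wound keratinocyte genes stood highest of 33 gene lists. Of 32 entries 23 were named by a probe set and 14 were above the floor, of which 9 were higher with HGF, 64.3% against 2.01% of all genes, 0 were lower, and all 14 had a ratio above 0. Their median was 0.93, against 0.02 over all genes. The list was chosen with earlier results of these arrays known, so its shares and signs are a description only. Beside S100A2 and PLAUR the higher members were LYPD3, a urokinase receptor-like surface protein (1.05), S100A9, a calcium-binding alarmin (1.01, a bound), BNC1, a basal keratinocyte zinc finger factor (0.96), and CDCP1, a Src substrate at the membrane (0.91). The others were PHLDA1 (0.81), HAS3, a hyaluronan synthase (0.75), and SCEL, a protein of the cornified envelope (0.60). S100A9 was under the floor in all arrays but HGF at 24 hours, where it read 60.3. Its place among the 14 and its sign rest on that array alone. BNC1 read 100.7 (vehicle) and 157.8 (HGF) after 2 hours, 131.0 and 119.8 after 8 and 65.6 and 142.6 after 24, so the HGF array of 24 hours was close to the vehicle array of 8 hours. SCEL read 116.4 (vehicle) and 107.4 (HGF) after 2 hours, 212.2 and 123.2 after 8 and 87.1 and 181.8 after 24, and the vehicle array of 8 hours was above the HGF array of 24 hours. The median of the list was 0.35 at 2 hours and 0.56 at 8 hours, and 0.73 at 24 hours over the earlier vehicle arrays. KRT15 (0.98) and LAMB3 (0.98) had means as high but no probe set at 2-fold.

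Mucins and secretory epithelial genes and the aldehyde dehydrogenases stood lowest. Of 9 secretory genes above the floor 2 were lower, MUC1 and SLPI, 22.2% against 1.08% of all genes, 0 were higher, and 8 had a ratio below 0, with a median of -0.30. Of 12 aldehyde dehydrogenases 2 were lower, 16.7% against the same 1.08%, 0 higher, and 9 had a ratio below 0, with a median of -0.28. ALDH3B1, which oxidises lipid-derived aldehydes, read 431.5 (vehicle) and 426.5 (HGF) after 2 hours, 376.2 and 338.8 after 8 and 344.1 and 113.8 after 24, and ALDH6A1, the methylmalonate semialdehyde dehydrogenase, read 121.7 (vehicle) and 118.1 (HGF) after 2 hours, 118.2 and 85.8 after 8 and 105.1 and 48.5 after 24. In both genes the HGF array of 24 hours was the lowest of the 6. Of 25 fibulins, LTBPs and small matrix glycoproteins 3 were lower, 12% against 1.08%, and 1, LTBP2, was higher, 4% against 2.01%, and their median was -0.22. EFEMP1, the matrix protein fibulin-3, read 593.4 (vehicle) and 543.3 (HGF) after 2 hours, 723.4 and 416.2 after 8 and 569.7 and 211.4 after 24, and CCN5, a secreted matricellular protein, read 54.2 (vehicle) and 56.4 (HGF) after 2 hours, 62.8 and 51.7 after 8 and 62.3 and 12.01 after 24. IGFBP7, an insulin-like growth factor binding protein, had a log2 ratio of -0.87, a bound.

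**Figure D3:**
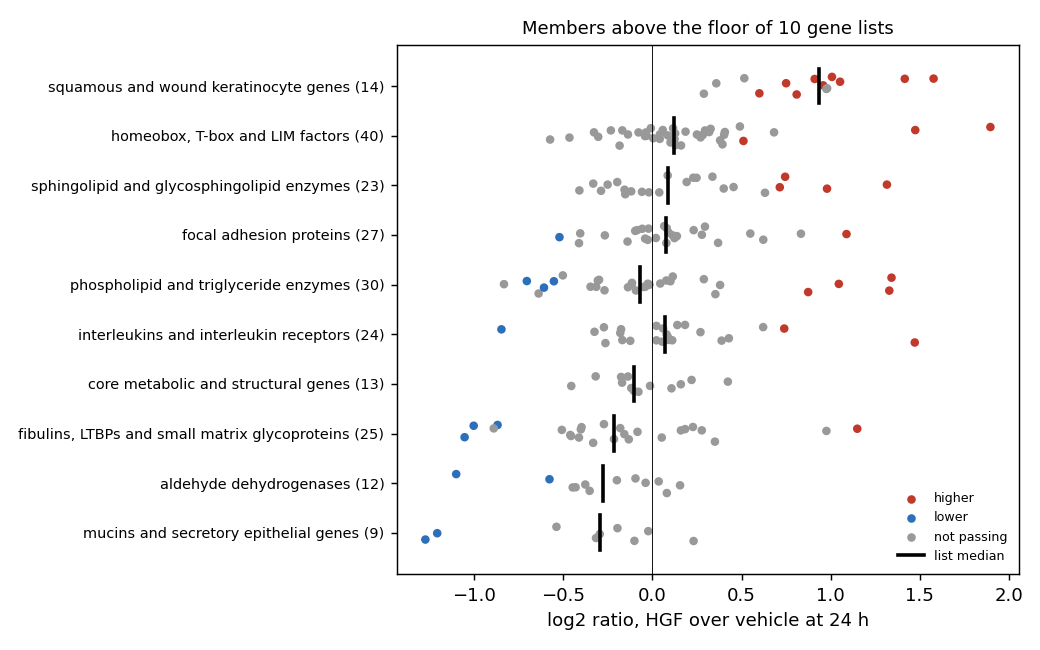
Log2 ratio of HGF over vehicle at 24 hours (x axis) of the members above the floor of 10 gene lists (y axis, number of such members in parentheses), 1 array a side; red and blue points met the criteria as higher or lower, grey points did not, and black bars are list medians. The squamous and wound keratinocyte genes, a list chosen with earlier results known, have the highest median, 0.93, and all 14 lie right of 0. The vertical scatter of points within a list has no meaning.

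Lipid enzymes were selected in both directions. Of 23 sphingolipid and glycosphingolipid enzymes 4 were higher and 0 lower, 17.4% against 2.01% of all genes, with a median of 0.09. SPHK1, the sphingosine kinase that makes sphingosine-1-phosphate, read 31.4 (vehicle) and 37.4 (HGF) after 2 hours, 40.0 and 140.8 after 8 and 47.8 and 118.9 after 24. B3GNT5 (0.98) and B4GALT6 (0.74), glycosyltransferases of lacto- and lactosylceramides, and ACER3, an alkaline ceramidase (0.71), had ratios over the earlier vehicle arrays of 0.33, 0.42 and 0.30, and all 3 were above each vehicle array at 24 hours, by less than 0.50 on the log2 scale. Of 30 phospholipid and triglyceride enzymes 4 were higher, 13.3%, and 3 lower, 10%, against 2.01% and 1.08% of all genes. The median of this list was -0.07. ACOX2, a peroxisomal oxidase of branched fatty acids and bile acid intermediates, read 96.2 (vehicle) and 77.7 (HGF) after 2 hours, 104.3 and 202.9 after 8 and 118.3 and 299.7 after 24. LYPLA1, an acyl-protein and lysophospholipid thioesterase, had a log2 ratio of 1.05, and LPIN1, a phosphatidate phosphatase, of 0.87. Over the earlier vehicle arrays LYPLA1 had 0.55 and LPIN1 0.72. LYPLA1 did not meet the criteria by that reference or under quantile normalization. The lower genes of this list were DGAT2 (-0.70), which completes triglycerides, and the desaturases SCD (-0.61) and FADS2 (-0.55).

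In the following lists of the actin cytoskeleton, adhesion sites and vesicle traffic 0% to 4.08% were higher and 0% to 3.70% lower. Of all genes 2.01% were higher and 1.08% lower. Of 49 actin crosslinking and severing proteins 2 were higher, CORO2B and the smooth muscle protein SMTN (0.82), and 1 was lower, TAGLN (-0.59), with a median of 0.09. Of 27 focal adhesion proteins FERMT1 was higher and the tensin TNS3 lower (-0.52), with a median of 0.08, and of 12 unconventional myosins 0 met the criteria, with a median of 0.11. Of 43 Rab GTPases RAB38 was higher and RAB26, which acts in granule secretion, lower, with 113.7 (vehicle) and 113.6 (HGF) after 2 hours, 124.3 and 79.0 after 8 and 180.4 and 53.5 after 24, and the median was 0.02.

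In the following surface and matrix lists, of 9 to 22 genes each, 4.55% to 14.3% were higher and 0% to 13.3% lower. Of all genes 2.01% were higher and 1.08% lower. Of 15 heparan sulphate proteoglycan genes SDC1, syndecan-1, was higher, with 859.5 (vehicle) and 1040 (HGF) after 2 hours, 987.9 and 2213 after 8 and 969.8 and 2125 after 24, while GPC1, glypican-1 (-1.11), and HSPG2, perlecan (-0.63), were lower, and the median was -0.05. Over the earlier vehicle arrays GPC1 had -0.25 and HSPG2 -0.30. Of 11 collagens 1 was higher, the transmembrane collagen COL13A1 (1.00), with a brightest probe set from 80.0 to 302.1, and the median was -0.01. Of 9 serine proteases PRSS22 was higher and PRSS23 lower (-0.83), with a median of -0.04. Of 14 clade B serpins and small protease inhibitors TFPI2 and SERPINB8 (0.67) were higher and SLPI lower, with a median of 0.12. Over the earlier vehicle arrays SERPINB8 had 0.35 and did not meet the criteria. Of 22 cathepsins and lysosomal hydrolases 1 was higher, CTSB (0.50), which fell short of the limit under several alternatives (0.40 with quantile normalization and 0.45 with the brightest probe set), and the median was -0.18.

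In ligand, receptor and transporter lists the share of higher genes ran from 0% to 12.5% and that of lower genes from 0% to 9.09%, against 2.01% and 1.08% of all genes. Of 24 interleukins and their receptors IL24 and IL1RL1, the interleukin-33 receptor (0.74), were higher, and IL11RA was lower (-0.85), with a median of 0.07. The brightest probe set of IL1RL1 was near or under the floor in all arrays but HGF at 24 hours, with 84.7. Of 14 tumour necrosis factor and death receptor genes the decoy receptor TNFRSF10D was higher (0.76), with a median of -0.05, and of 8 prostaglandin genes the receptor PTGER4 (0.54), with a median of -0.08. Of 22 protease-activated, lysophospholipid and adhesion receptors 1 was higher, ADGRG1 (0.51), and 2 were lower, with a median of -0.01. The only protease-activated receptor among the 22 was F2R (0.77), which did not meet the criteria. F2RL1, which the study's supplementary list gives as higher, is not among them. ADGRG2, an adhesion receptor, read 161.3 (vehicle) and 132.3 (HGF) after 2 hours, 143.2 and 65.0 after 8 and 95.7 and 28.7 after 24, and LPAR2, a lysophosphatidic acid receptor, had a ratio of -0.86, or -0.01 over the earlier vehicle arrays. Of 13 potassium channels 1 was higher, KCNN4, and the median was -0.02. Of 174 solute carriers 4 were higher and 3 lower, 2.30% and 1.72%, with a median of -0.03. They included SLC46A3, a lysosomal carrier (1.02), the bicarbonate carrier SLC4A7 (0.90) and the monocarboxylate carrier relative SLC16A5 (-0.70). Of 21 ABC transporters ABCC3 was lower (-0.84), with a median of -0.06.

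In the following lists, of 9 to 40 genes each, 0% to 11.1% were higher and 0% to 18.2% lower. Of all genes 2.01% were higher and 1.08% lower. Among nuclear factors 3 of 40 homeobox, T-box and LIM genes were higher and 0 lower, with a median of 0.12. EOMES, a T-box factor, read 33.3 (vehicle) and 27.7 (HGF) after 2 hours, 44.8 and 94.6 after 8 and 39.3 and 146.4 after 24. LHX1, a LIM homeobox factor, read 32.0 (vehicle) and 75.5 (HGF) after 2 hours, 44.5 and 83.5 after 8 and 29.4 and 83.4 after 24, and HOXB8 had a log2 ratio of 0.51. Of 11 C/EBP and STAT factors DDIT3 was higher and CEBPD and STAT4 lower, with a median of 0.05. CEBPD read 813.0 (vehicle) and 716.2 (HGF) after 2 hours, 647.7 and 565.3 after 8 and 764.0 and 244.3 after 24, and STAT4, lower already at 8 hours, read 96.0 (vehicle) and 90.3 (HGF) after 2 hours, 94.0 and 20.8 after 8 and 61.8 and 28.3 after 24. Of 9 HMGA, HMGN and HMGB genes HMGA1, an architectural chromatin protein, was higher, with 813.9 (vehicle) and 917.0 (HGF) after 2 hours, 997.3 and 2858 after 8 and 1202 and 2846 after 24, and the median was 0.00. Of 26 SWI/SNF, ISWI and UHRF factors UHRF2 (1.02) and SMARCA5 (0.78) were higher and BCL7C lower (-1.11), with a median of 0.08. Of 12 glycine cleavage and one-carbon genes GLDC, glycine decarboxylase, was higher, with 151.6 (vehicle) and 159.6 (HGF) after 2 hours, 119.5 and 205.7 after 8 and 125.5 and 317.7 after 24, and the median was 0.02. Of 25 genes of export from the endoplasmic reticulum TEX261 was lower (-0.56), with a median of 0.06, but its brightest probe set read 437.3 (vehicle) and 418.0 (HGF) and by that probe set alone it was not selected. Of 16 mitochondrial fission and fusion genes 0 met the criteria, with a median of 0.00. Of 13 core metabolic and structural genes 0 met them, with a median of -0.10 that turned to 0.01 under quantile normalization. Over the 33 lists 29 medians lay within 0.2 of 0.

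The genes selected at 24 hours were set beside the other times of treatment. At 2 hours 83 genes were higher, 0.817% of those above the floor, and 11 lower, 0.108%. At 8 hours 532 were higher, 5.09%, and 1580 lower, 15.1%. Among the 206 higher genes, 69 met the criteria in the same direction at 8 hours, 30 at 2 hours, 19 at both and 126 at neither. Of the 110 lower genes 18 were also lower at 8 hours and 0 at 2 hours. On the opposite side at 8 hours were 28 genes, 19 that were higher and 9 that were lower at 24 hours. MAP1B, a microtubule-associated protein, had the lowest ratio at 8 hours of the higher genes, -1.83, and 0.89 at 24 hours, with 343.1 (vehicle) and 342.2 (HGF) after 2 hours, 518.0 and 220.3 after 8 and 255.7 and 436.7 after 24. In MAP1B the vehicle array of 24 hours was below that of 8 hours, and the ratio over both earlier vehicle arrays was -0.27. Values of this kind bear on many of the 28 genes, and each ratio at 24 hours uses 1 vehicle array.

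**Figure D4:**
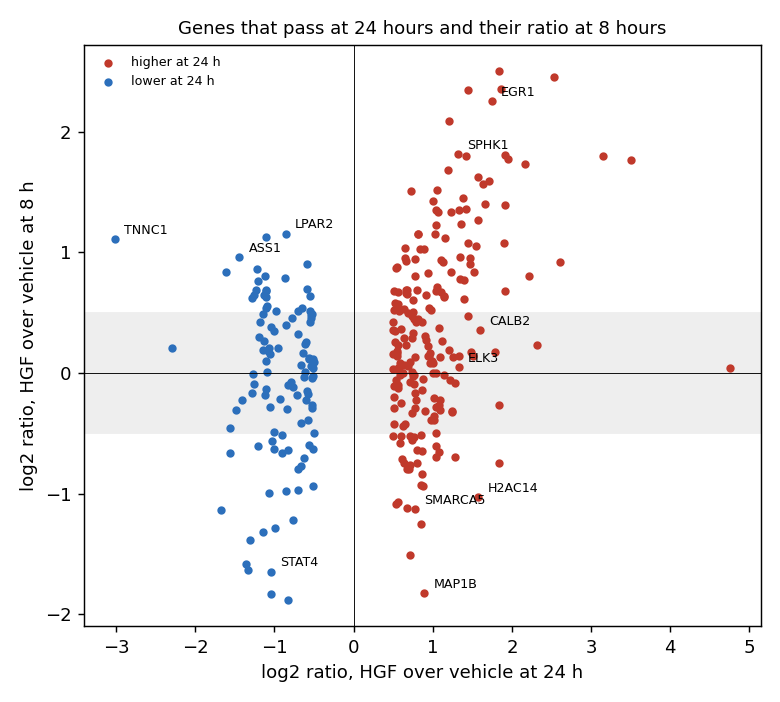
Log2 ratio of HGF over vehicle at 24 hours (x axis) and at 8 hours (y axis) of the 206 genes higher (red) and 110 genes lower (blue) at 24 hours, 1 array per condition and time; the grey band marks ratios within 0.5 of 0 at 8 hours. Points lie on both sides of 0 at 8 hours in both groups, with TNNC1 at 1.11 and MAP1B at -1.83 on the y axis.

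Vehicle cells also changed with time in culture, which gives the only spread that these arrays offer. By the same criteria 95 genes, 0.919%, differed between vehicle at 8 and 2 hours in either direction, 259, 2.52%, between 24 and 2 hours, and 643, 6.2%, between 24 and 8 hours. This spread includes time and array and cannot be split into them. The HGF array of 24 hours lay above all 3 vehicle arrays by at least 0.50 on the log2 scale for 227 genes, 2.22%, and below all 3 for 151, 1.48%. Of the 206 higher genes 117 were among the former, and 23 lay inside the vehicle range. Of the 110 lower genes 56 were among the latter, and 9 lay inside the range. Over the mean of the earlier vehicle arrays, those of 2 and 8 hours, the median log2 ratio was 0.70 for the higher and -0.66 for the lower genes. The direction was kept by 188 of the 206 and 107 of the 110, while for 51 higher and 28 lower genes the ratio was less than 50% of that over the vehicle array of 24 hours. H2AC14, a replication-dependent histone H2A, had the clearest drop among the highest genes, from 1.58 to 0.17, with 81.8 (vehicle) and 68.9 (HGF) after 2 hours, 77.4 and 37.9 after 8 and 17.30 and 89.4 after 24. Of its vehicle arrays that of 24 hours alone was under the floor. SMARCA5, an ISWI chromatin remodeller, went from 0.78 to -0.09, so its direction rests on the vehicle array of 24 hours. S100A2, KCNN4, PLAUR, SPHK1 and RHOV did not depend on the reference in this way, with ratios over the earlier arrays of 1.68, 1.81, 1.70, 1.75 and -1.27.

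**Figure D5:**
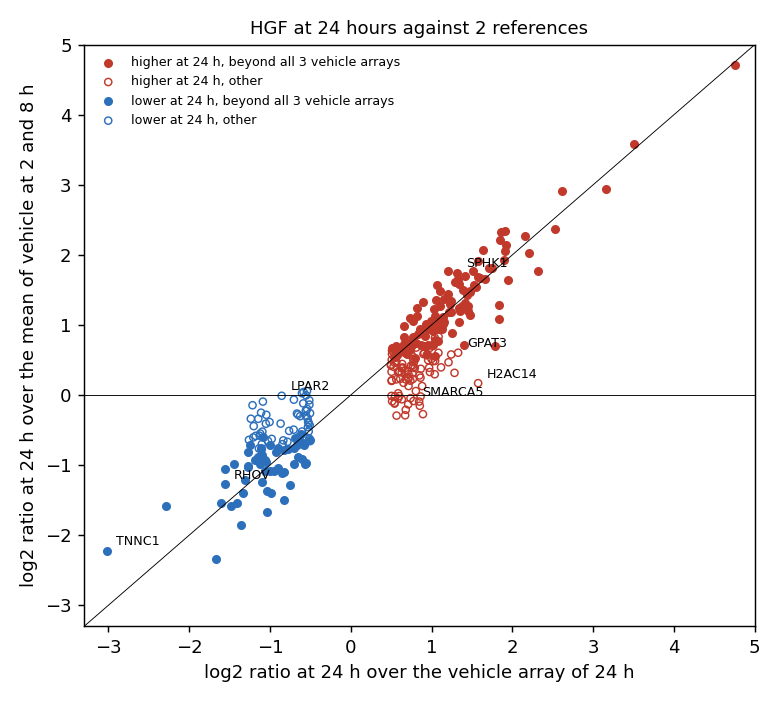
Log2 ratio of the HGF array of 24 hours over the vehicle array of 24 hours (x axis) and over the mean of the 2 earlier vehicle arrays (y axis) of the 206 genes higher (red) and 110 genes lower (blue), 1 array per condition; filled points lie beyond all 3 vehicle arrays by at least 0.50 on the log2 scale and the diagonal marks equal ratios. SMARCA5 and LPAR2 lie near 0 on the y axis, and RHOV and SPHK1 near the diagonal.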

How the data were processed

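RNA of DU145 cells was hybridised to Affymetrix U133plus2.0 arrays, 1 for each of 6 conditions, and grouped by the sample labels. The deposited values are linear probe set intensities, made by the authors with MAS5 per the submitters' processing notes. The methods describe quantile normalization, a mean of 150 and a minimum of 30, none of which the deposited intensities show, since their means run from 149.1 to 205.4 and 58.9% to 65.7% of values are under 30. Each array was therefore scaled to 150 and floored at 30 here. Of 54675 probe sets 42898 were annotated, 41097 with 1 gene symbol and 1801 with several, which were left out, and 11777 were unnamed. Of 41091 named non-control probe sets 41037 matched RefSeq genes by gene ID. No columns of per-sample values were left unused.

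Selection was modelled on the study's criteria, with 2-fold on a probe set and a log2 ratio of 0.50 on the mean. That mean included probe sets at the floor in both arrays. Since there was 1 array per condition, no test, interval or SD was possible, and that number limits the precision. The named genes are first the 15 highest and 15 lowest selected genes outside the study's text and top genes. The 12 highest and 12 lowest of these within 0.5 at 2 and 8 hours were added. So were up to 4 selected members of each list, markers, and any of the study's text or top genes on which a result turned. They were 103 in all before the markers. The supplementary list of the study was not part of this rule, and it holds CALB2, EGR1 and S100A2 among others. Genes and lists were chosen with earlier results of these data known. The 33 lists hold families and pathways, each printed with its count and median except 3 that are not reported here. Alternatives changed the scaling, floor, probe set summary, reference array and threshold. Python 3.11.15, numpy 2.4.6, pandas 2.3.3 and matplotlib 3.10.9 were used.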

Additional observations from a re-analysis of the deposited data

Results flagged for a closer look

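Among the genes named by the rule 9 met the criteria in opposite directions at 24 and 8 hours. MAP1B (0.89 and -1.83) and FADS2 (-0.55 and 0.64), named outside that rule, did so too. With 1 array per condition and time the difference was not tested. At 8 hours 15.1% of all genes above the floor were lower with HGF and 5.09% higher. Opposite calls are therefore not shown to be particular to these genes. TNNC1 had a log2 ratio of HGF over vehicle of -3.01 at 24 hours and 1.11 at 8 hours. MUC1 had -1.21 and 0.76, and GPC1, the glypican, -1.11 and 0.68. IGFBP7 had -0.87 and 0.79, LPAR2 -0.86 and 1.16, and TAGLN, an actin-binding protein of smooth muscle, -0.59 and 0.91. In the other direction ACER3 had 0.71 at 24 hours and -0.76 at 8 hours, SMARCA5 0.78 and -1.13, and H2AC14 1.58 and -1.03. Over the vehicle arrays of 2 and 8 hours the 24 hour ratio of TNNC1 was -2.22, while those of LPAR2, TAGLN and SMARCA5 were -0.01, 0.04 and -0.09.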

How the results depend on the processing

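Counts of selected genes depended most on the floor, the threshold and the reference array. Against 206 higher and 110 lower genes, the counts were 2896 and 3289 with no floor (187 and 103 of the main genes among them), 45 and 11 with a 3-fold probe set ratio, and 49 lower with a floor of 60. With the mean of the earlier vehicle arrays (2 and 8 hours) as reference 347 genes were lower, 51 of them among the 110, and 176 higher, 114 of them among the 206. Genes beyond all 3 vehicle arrays, 117 above and 56 below, numbered 914 and 1401 with no floor and 77 and 30 with a floor of 60. The other alternatives stayed within 1.5 times of each count, but a like count can hold other genes. With the mean of all 3 vehicle arrays as reference 158 genes were higher and 141 lower. Of the main genes 123 of the 206 and 58 of the 110 were among them. Signs turned for SMARCA5 (-0.09) and TAGLN (0.04) over the earlier vehicle arrays, and with no floor for ADGRG1 (-1.17), TNS3 (0.44) and the median of the unconventional myosins (-0.03). The median of the core metabolic and structural genes turned to 0.01 under quantile normalization, 0.02 without _s_at and _x_at probe sets, 0.03 over all 3 vehicle arrays and 0.07 over the earlier vehicle arrays. The median of all genes stayed within 0.1 of 0 throughout. Of the 103 named genes 13 met the criteria in the same direction under each alternative that measured them. With the 3-fold ratio left out 29 did, among them TNNC1, S100A2, PLAUR, KCNN4, ELK3, FERMT1, GLRX and ALDH3B1. No paired analysis was possible because there was 1 array per condition.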

Other observations

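Probe sets without a gene name gave a different balance of directions at 24 hours. Of 11721 such probe sets 1424 were above the floor, of which 15 were at least 2-fold higher with HGF, 1.05%, and 31 at least 2-fold lower, 2.18%. Of 17344 named probe sets above the floor 1.93% were higher and 0.957% lower by the same limit. The log2 ratios of the unnamed probe sets ran from -2.00 to 3.13. Near the selection rule lay 97 genes with a 2-fold probe set but a smaller mean, and 731 genes with a mean log2 ratio of 0.50 but no 2-fold probe set, 412 of them higher and 319 lower.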
